A study of Canis lupus familiaris with 18 samples.

Results

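The right ventricle (RV) of dogs in late heart failure (HF), after 5 weeks of rapid ventricular pacing (tachypacing), was compared with the RV of control dogs. The comparison takes 6 of the 18 Affymetrix Canine_2 arrays of the study, 3 from RV late HF and 3 from RV control. The arrays of each group were taken by their sample titles. Values are log2 signals per probe set, and 1 probe set stood for each gene, the one with the highest mean over all arrays. After the 40% of probe sets with the lowest mean signal were left out, 10988 genes were tested.

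The groups used were RV late HF (5 weeks of pacing, with 5 to 6 weeks in the protocol), RV early HF (2 weeks of pacing, with 2 to 3 weeks in the protocol) and RV control, and for the other chamber right atrium (RA) late HF and RA control. Each group had 3 arrays of total RNA from snap-frozen tissue of adult dogs, mongrel or beagle, with no breed stated per array. No genetic change is named for any group. Replicates are described as biological, yet no label ties an array to a dog, so a p-value here reflects only how far these arrays scatter, and part of that scatter may be technical. In a piece of whole tissue, fewer cells of a type and less RNA per cell cannot be told apart.

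Sustained rapid pacing of the ventricle is a classical way to produce a dilated, failing heart in dogs. In failing myocardium, fibroblasts lay down collagens, fibronectin and other matrix, macrophages supply lysosomal proteases and cytokines, and myocytes turn on a stress programme marked by natriuretic peptides while ion channel, calcium cycling and mitochondrial genes often fall. Ventricular myocytes carry the myosin light chains MYL2 and MYL3, and atrial myocytes carry MYL7 and MYL4, so these genes also report which chamber a piece of tissue came from.

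The tissue labels were checked first. The ventricular regulatory light chain MYL2 had 12.76, 14.35 and 14.26 in RV late HF and 14.13, 14.17 and 14.16 in RV control, and its RA control range was 6.04 to 9.38. The ventricular essential light chain MYL3 had 12.35, 13.85 and 13.89 in RV late HF and 14.15, 14.02 and 14.02 in RV control. The transcription factor IRX5 averaged 7.83 ± 0.83 in RV late HF and 7.94 ± 0.35 in RV control (SD, n = 3 each), with 6.88 in RV late HF replicate 1. RV late HF replicate 1 was thus the lowest RV array shown for all 3 ventricular markers, and the other 2 late HF arrays lay at or near control levels. The atrial markers were mixed in that replicate. The atrial essential light chain MYL4 was not highest there, with 8.69, 11.79 and 11.14 in RV late HF. MYL4 had 8.10, 7.89 and 10.39 in RV control, against 13.98 to 14.03 in RA control. The atrial regulatory light chain MYL7 was highest in replicate 1, with 13, 12.58 and 12.86 in RV late HF. The mean signal of the 10 atrial myocyte markers tested was lowest in replicate 1, with 8.29, 8.58 and 8.58 in RV late HF.

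**Figure D1:**
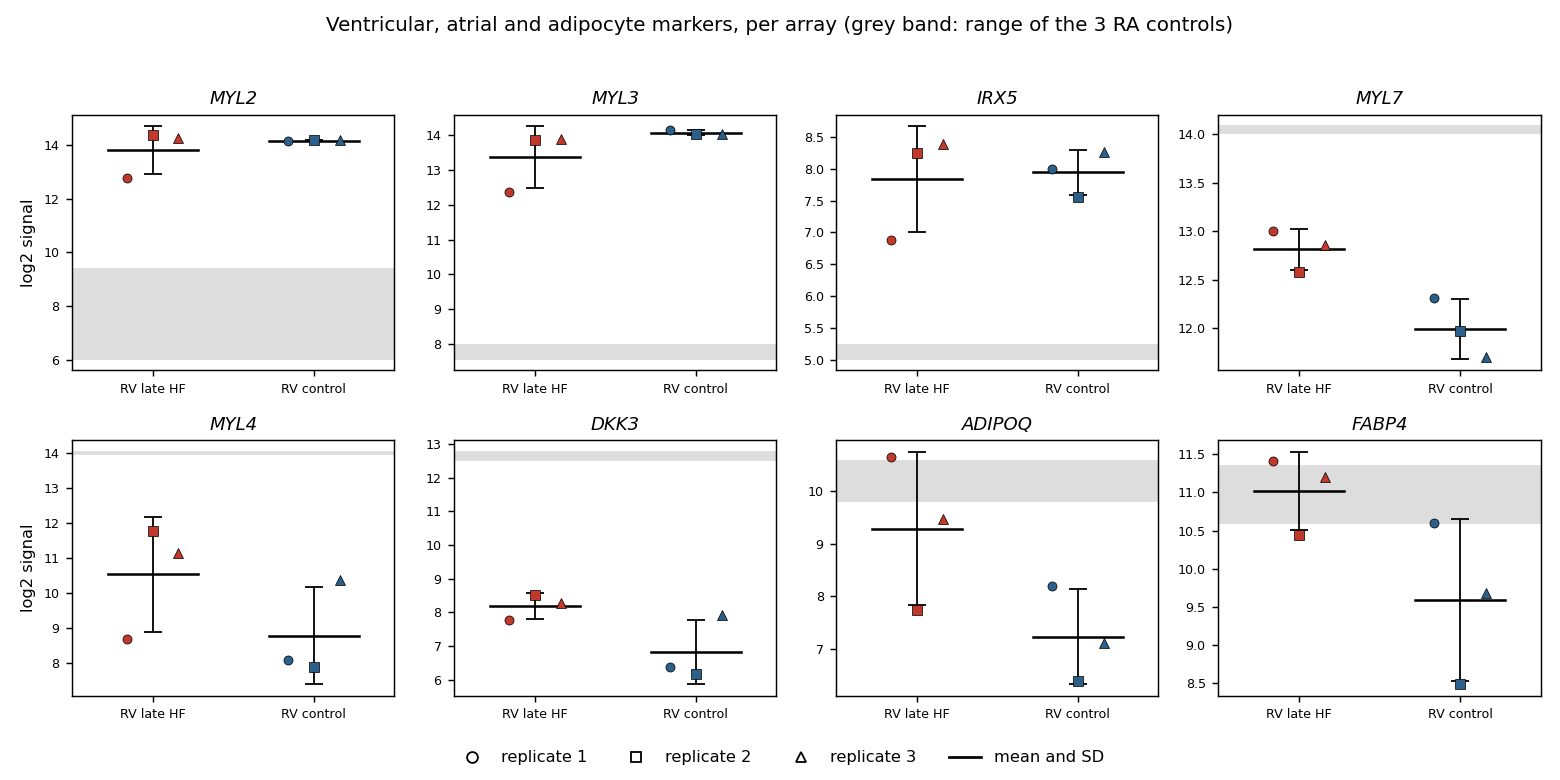
Log2 signal (y axis) of ventricular (MYL2, MYL3, IRX5), atrial (MYL7, MYL4, DKK3) and adipocyte (ADIPOQ, FABP4) markers in RV late HF (left) and RV control (right). Symbols are the 3 arrays, lines and bars the mean and SD, and the grey band the range of the 3 RA controls. Replicate 1 of RV late HF is low in the ventricular markers (MYL2 at 12.76) and high in ADIPOQ (10.64).

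A position between the chambers was computed for each array over the 2162 probe sets that differed between RA and RV controls, with 0 at the RV control mean and 1 at the RA control mean. RV late HF arrays stood at 0.368, 0.254 and 0.285, against 0.011, -0.054 and 0.043 in RV control. RV early HF arrays stood at 0.176, 0.142 and 0.111. The probe sets and both ends of this scale came from the control arrays themselves, so the RV controls average 0 by construction. Where an RV control array not used for the scale would stand was not tested. All 3 late HF arrays lay farther toward the atrial side than the early HF arrays, most of all replicate 1. The part of this shift in the results below was not tested. RA control ranges are given beside the genes that led each direction, and the counts of called genes are given with and without RV late HF replicate 1.

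Other markers of tissue make-up and RNA quality moved as well. Adiponectin (ADIPOQ), made by fat cells, had 10.64, 7.74 and 9.47 in RV late HF and 8.19, 6.39 and 7.10 in RV control, so the groups overlapped. Over the 20 adipocyte markers tested, 0 passed the test, and their mean signal was 7.71 ± 0.31 in RV late HF, highest in replicate 1, and 7.25 ± 0.19 in RV control (SD, n = 3 each). The 3' minus 5' signal of GAPDH, which rises as RNA degrades, was 1.36 ± 0.10 in RV late HF and 1.17 ± 0.10 in RV control (SD, n = 3 each), with no overlap. The same measure of actin was 0.08 to 0.13 in RV late HF and -0.69 to -0.10 in RV control, also with no overlap. The spiked controls cre, at 13.40 to 13.51 in RV late HF and 13.22 to 13.29 in RV control, and bioD, at 11.87 to 11.99 in RV late HF and 11.68 to 11.86 in RV control, were higher in late HF. The spiked control bioB was lower, at 4.74 to 4.83 in RV late HF and 4.93 to 5.08 in RV control, and bioC overlapped. The part of adipose tissue, RNA quality and spike level in the results was not tested beyond the alternatives given for the counts.

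Few genes passed the test in late HF, with 3 arrays per group, and nearly all of them rose. At an unadjusted p under 0.05 by limma there were 1568 genes. Of 10988 genes, 68 (0.619%) had an adjusted p under 0.05 by limma with Benjamini-Hochberg adjustment over all probe sets, of which 59 (0.537%) were higher and 9 (0.0819%) lower in RV late HF. The rises ran from 1.43-fold to 4.14-fold and the falls from 0.744-fold to 0.489-fold. For each of the 68 genes the 3 late HF arrays did not overlap the 3 controls, as was the case for 9.48% of all genes on the higher side and 10.5% on the lower side. Without RV late HF replicate 1, 24 genes (0.218%) passed, 17 higher (0.155%) and 7 lower (0.0637%), and 20 of them were among the 68. All 59 higher and all 9 lower genes kept their sign without that replicate, which the lack of overlap with the controls fixes in advance. The count rests on single arrays: it was 0 without RV control replicate 3 (1313 genes at an unadjusted p under 0.05), 1 without RV control replicate 2, 3 without RV late HF replicate 3 and 18 without RV late HF replicate 2. It was also 0 in a fit over all 18 arrays (1000 genes at an unadjusted p under 0.05) and 17 once the array labelled RA late HF replicate 3, whose chamber position was 0.152, was left out.

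**Figure D2:**
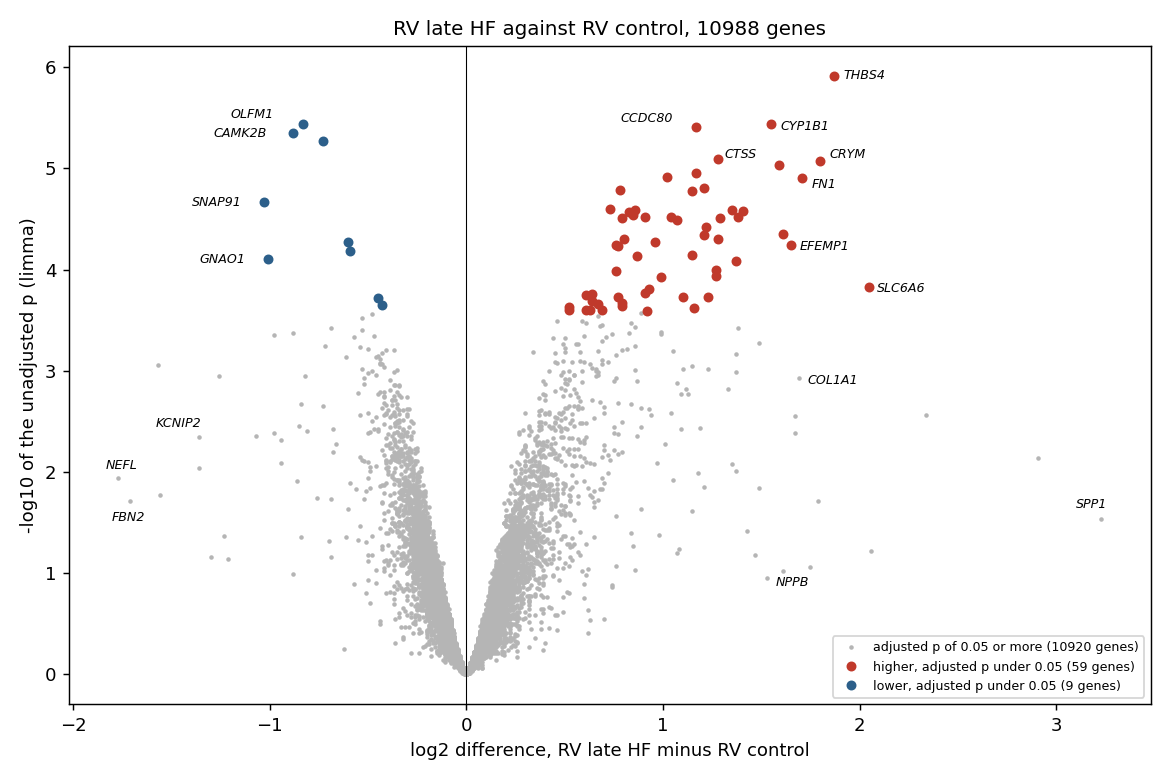
Log2 difference of RV late HF minus RV control (x axis) against the -log10 of the unadjusted limma p (y axis) for 10988 genes. Red points are the 59 genes higher and blue points the 9 lower at an adjusted p under 0.05. Grey points did not pass, among them SPP1 (3.23) and NPPB (1.53), with the spread taken over all 9 RV arrays.

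Of the lists, that of fibrillar collagen and matrix held the most called genes. Thrombospondin 4 (THBS4), a matricellular protein induced in strained heart muscle, had 7.36, 7.46 and 7.77 in RV late HF and 5.93, 5.59 and 5.46 in RV control. Every late HF array lay above every control, and the RA control range of THBS4, 5.46 to 5.76, was that of the RV controls. THBS4 rose by 1.87 (log2 difference, SE 0.20, adjusted p = 0.0145), a 3.66-fold rise, and by 1.95 without RV late HF replicate 1. Fibronectin (FN1), the glycoprotein on which other matrix assembles, had 10.01, 10.58 and 10.37 in RV late HF and 8.71, 8.22 and 8.89 in RV control. FN1 rose by 1.71 (SE 0.23, adjusted p = 0.0166), to levels within or above its RA control range of 9.94 to 10.39. The other 2 probe sets of FN1 differed by 0.12 and -0.12, so the probe sets of this gene disagree.

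Collagen I followed. Its alpha 2 chain COL1A2 had 9.86, 10.32 and 9.95 in RV late HF and 9.07, 8.28 and 8.54 in RV control, and RA controls ranged from 9.82 to 10.08. COL1A2 rose by 1.41 (SE 0.20, adjusted p = 0.0188), or 2.66-fold. Of its other 3 probe sets, 2 differed by 1.51 and 1.36 and the third by -0.10. The alpha 1 chain COL1A1 had 9.02, 10.39 and 9.11 in RV late HF and 8.16, 7.25 and 8.04 in RV control, without overlap, and its difference of 1.69 (SE 0.39, adjusted p = 0.0844) did not pass. COL3A1, the chain of collagen III, differed by 1.13 (SE 0.27, adjusted p = 0.0971).

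Of the 51 genes of fibrillar collagen and matrix tested, 12 rose and 0 fell, with a median difference of 0.44 against -0.01 over all genes. Without RV late HF replicate 1, 4 rose and the median was 0.48. Over all genes tested, 0.537% rose and 0.0819% fell, and 0.155% and 0.0637% did so without that replicate. These shares are the background for this list and for every list count below. The mean signal of the 51 genes was 8.01 ± 0.06 in RV late HF and 7.41 ± 0.12 in RV control (SD, n = 3 each), and the median difference of RA control minus RV control over the list was 0.38. Beside THBS4, FN1 and COL1A2, the proteoglycan lumican (LUM), which spaces collagen fibrils, rose by 1.15 (SE 0.16, adjusted p = 0.0171), with 11.02, 11.49 and 11.50 in RV late HF and 9.99, 10.26 and 10.30 in RV control, against 11.08 to 11.25 in RA control. The other 8, some of them named only after their values were seen, were genes of elastic fibres and microfibrils (FBN1 at 1.22, MFAP5 at 1.15, MFAP4 at 1.10 and FBLN5 at 0.87), the fibril-associated collagens COL14A1 (0.83) and COL12A1 (0.63), thrombospondin 1 (THBS1, 1.23) and CILP (1.07). COL12A1 averaged 5.25 in RV control, under the signal limit of 5.31 used for the filter, so the size of its rise is uncertain.

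The extremes of the matrix list were among the genes that did not pass. These were picked after their values were seen. Osteopontin (SPP1), a matricellular protein of activated macrophages and fibroblasts, had 6.74, 10.13 and 8.83 in RV late HF and 4.29, 3.95 and 7.77 in RV control, and its difference of 3.23 (SE 1.29, adjusted p = 0.279) was smaller than 3 times its error. Connective tissue growth factor (CCN2) had 9.36, 10.05 and 9.14 in RV late HF and 8.20, 7.44 and 8.08 in RV control (1.61, SE 0.88, adjusted p = 0.425). These groups did not overlap, and the SE also took in the spread of the RV early HF arrays. Fibrillin 2 (FBN2) had 8.25, 6.47 and 6.43 in RV late HF and 8.75, 8.87 and 8.66 in RV control (-1.71, SE 0.62, adjusted p = 0.238). Periostin (POSTN), a matrix protein of activated fibroblasts, was below the signal limit in every RV control (4.13, 3.93 and 4.01) and had 3.57, 5.38 and 5.70 in RV late HF (0.86, SE 0.47, adjusted p = 0.422).

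**Figure D3:**
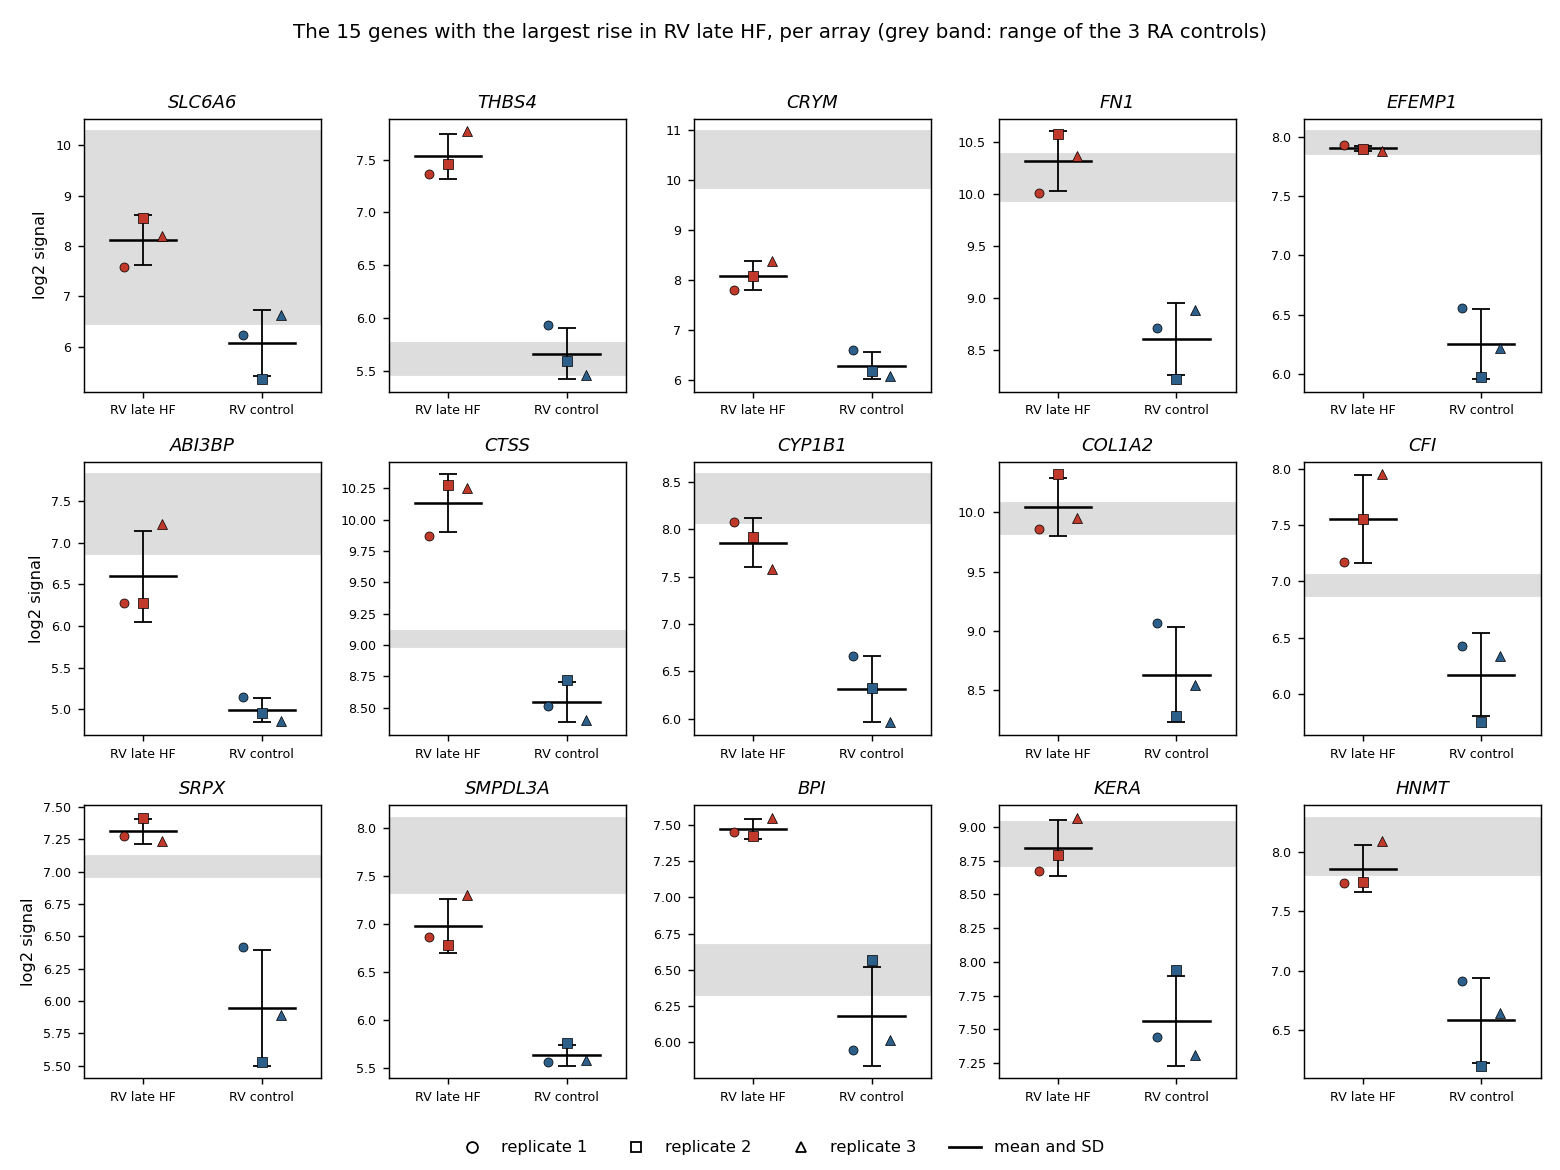
Log2 signal (y axis, own scale in each panel) of the 15 genes with the largest rise, in RV late HF (left) and RV control (right), per array with the mean and SD; the grey band is the range of the 3 RA controls. In every panel the 3 late HF arrays lie above the 3 controls. The band lies near the late HF arrays for FN1, EFEMP1, COL1A2 and KERA, and near the controls for THBS4 and BPI.

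Further secreted and matrix genes lay outside that list. EFEMP1 (fibulin 3), a matrix glycoprotein, had 7.93, 7.90 and 7.88 in RV late HF and 6.56, 5.97 and 6.22 in RV control, a rise of 1.65 (SE 0.26, adjusted p = 0.024) to its RA control range of 7.86 to 8.05. ABI3BP, another matrix protein, had 6.28, 6.28 and 7.23 in RV late HF and 5.15, 4.96 and 4.86 in RV control, all below the signal limit. Its rise of 1.61 (SE 0.25, adjusted p = 0.0226) is therefore uncertain in size, its RA control range was 6.87 to 7.82, and its other probe set differed by -0.08. Keratocan (KERA), a keratan sulphate proteoglycan best known from the cornea, had 8.67, 8.79 and 9.07 in RV late HF and 7.44, 7.94 and 7.31 in RV control (1.28, SE 0.16, adjusted p = 0.0155), against 8.71 to 9.04 in RA control. The sushi-repeat protein SRPX rose by 1.37 (SE 0.23, adjusted p = 0.0297), with 6.96 to 7.12 in RA control, while its other 2 probe sets differed by 0.41 and 0.21. CCDC80, a secreted matrix-binding protein, rose by 1.17 (SE 0.14, adjusted p = 0.0145), with 8.84 to 9.56 in RA control, and its other probe set differed by 0.27. EFEMP1 (adjusted p = 0.0811) and SRPX (adjusted p = 0.0837) did not pass without RV late HF replicate 1.

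Fibroblast markers moved with the matrix genes. Of 18 tested, 4 rose (LUM, COL1A2, DPT and MFAP5) and 0 fell, with a median difference of 0.61, and 2 rose without RV late HF replicate 1. Dermatopontin (DPT), a small protein of the collagen matrix, had 10.90, 10.72 and 10.52 in RV late HF and 9.89, 9.98 and 9.90 in RV control, a rise of 0.79 (SE 0.12, adjusted p = 0.0188), against 10.97 to 11.16 in RA control. Of the 4 that rose, LUM, COL1A2 and MFAP5 also stand on the matrix list. The mean signal of the 18 markers was 8.53 to 8.72 in RV late HF, 7.90 to 8.02 in RV control and 8.57 to 8.68 in RA control. The receptors PDGFRA (0.15, adjusted p = 0.615) and DDR2 (0.03, adjusted p = 0.943), which define cardiac fibroblasts, did not pass, and both were picked after their values were seen.

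Few genes on the lists of macrophage markers, proteases or cytokines passed the test. Cathepsin S (CTSS), a lysosomal protease of antigen-presenting cells, had 9.87, 10.28 and 10.25 in RV late HF and 8.51, 8.72 and 8.40 in RV control, against 8.98 to 9.11 in RA control. CTSS rose by 1.59 (SE 0.21, adjusted p = 0.0155), or 3.01-fold, and its other probe set differed by 1.43. It was the 1 of 21 macrophage and myeloid markers that rose, and 0 fell. The median of the 21 was 0.46, and 0.34 without RV late HF replicate 1. Their mean signal was 7.46, 7.35 and 7.42 in RV late HF, 6.89, 7.06 and 6.99 in RV control and 7.03 to 7.14 in RA control, so the late HF arrays lay above both control chambers. In 14 of the 21 the late HF arrays were all above the controls, as in 9.48% of all genes.

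The next macrophage markers did not pass. Lysozyme (LYZ) had 9.87, 10.03 and 9.62 in RV late HF and 9.06, 8.97 and 9.20 in RV control (0.76, SE 0.18, adjusted p = 0.0838). The co-stimulatory receptor CD86 had 7.40, 7.04 and 7.03 in RV late HF and 6.61, 6.62 and 6.78 in RV control (0.49, SE 0.11, adjusted p = 0.0817). The leukocyte tetraspanin CD53 differed by 0.46 (SE 0.10, adjusted p = 0.0768). CD163 and CSF1R, receptors of tissue macrophages picked after their values were seen, differed by 1.04 (SE 0.27, adjusted p = 0.114) and 0.06 (SE 0.11, adjusted p = 0.824).

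Of the 25 matrix proteases and inhibitors, CTSS and SERPINE2 rose and 0 fell, with a median of 0.19. Both also passed without RV late HF replicate 1. Cathepsin C (CTSC) and the serpin SERPINF1, on none of the lists and picked after their calls were seen, rose past the test too. SERPINE2, a serpin that blocks thrombin and other serine proteases, had 8.69, 8.88 and 8.76 in RV late HF and 7.94, 7.46 and 7.41 in RV control (1.17, SE 0.15, adjusted p = 0.0166), against 8.47 to 9.03 in RA control. Its other 2 probe sets differed by 0.58 and 0.40. Cathepsin K (CTSK), a collagen-degrading protease, had 9.53, 10.32 and 9.86 in RV late HF and 8.50, 8.64 and 8.47 in RV control, without overlap, and did not pass (1.37, SE 0.29, adjusted p = 0.0702). The gelatinase MMP2 (0.35, adjusted p = 0.14) and the inhibitor TIMP1 (0.49, adjusted p = 0.216) did not pass either.

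Of 40 cytokine, chemokine and complement genes, CFI and CCL2 rose and 0 fell, with a median of 0.16. Complement factor I (CFI), the protease that inactivates C3b and C4b, had 7.17, 7.55 and 7.95 in RV late HF and 6.43, 5.75 and 6.34 in RV control. It rose by 1.38 (SE 0.20, adjusted p = 0.0188), its other probe set differed by 1.37, and RA controls ranged from 6.87 to 7.06. CCL2, the chemokine that draws monocytes into tissue, had 7.77, 7.20 and 7.86 in RV late HF and 6.62, 6.65 and 6.60 in RV control (0.99, SE 0.17, adjusted p = 0.0366), and its RA control range was 6.51 to 6.66. Without RV late HF replicate 1, CFI still passed, CCL2 did not (adjusted p = 0.103), and the chemokine CXCL14, named after its values were seen, passed at 1.87 (adjusted p = 0.0276, against 0.363 with all 3 late HF arrays). The alarmin IL33 had 5.90, 5.72 and 6.97 in RV late HF and 4.15, 4.95 and 5.02 in RV control, below the signal limit (1.49, SE 0.31, adjusted p = 0.0675).

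BPI, a bactericidal protein of neutrophil granules, had 7.45, 7.42 and 7.55 in RV late HF and 5.95, 6.57 and 6.02 in RV control, a rise of 1.29 (SE 0.19, adjusted p = 0.0188), with 6.33 to 6.67 in RA control. BPI did not pass without RV late HF replicate 1 (adjusted p = 0.0609). It was the 1 of 6 neutrophil markers that passed, and the other 5 lay between -0.15 and 0.20, ELANE at 0.20 (adjusted p = 0.456) and CSF3R at -0.15 (adjusted p = 0.492) among them. Of 10 lymphocyte markers and 37 genes of antigen presentation and the interferon response, 0 passed, with medians of 0.05 and 0.15. The class II gene DLA-DQA1 had 8.08, 7.83 and 6.86 in RV late HF and 6.83, 6.71 and 6.33 in RV control (0.97, SE 0.30, adjusted p = 0.171).

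The largest rise past the test belonged to SLC6A6, the taurine transporter. It had 7.59, 8.56 and 8.20 in RV late HF and 6.22, 5.35 and 6.63 in RV control, a rise of 2.05 (SE 0.36, adjusted p = 0.0422), or 4.14-fold. Its other probe set differed by 0.19, and RA controls spread from 6.44 to 10.28. SLC6A6 did not pass without RV late HF replicate 1 (2.31, adjusted p = 0.0571). CRYM, a cytosolic protein that binds thyroid hormone, had 7.80, 8.09 and 8.39 in RV late HF and 6.60, 6.19 and 6.09 in RV control, a rise of 1.80 (SE 0.23, adjusted p = 0.0155). CRYM is an atrial marker here, at 9.85 to 10.98 in RA control, so late HF arrays lay between the control chambers. Its other probe set differed by 0.59.

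CRYM was the 1 of 10 atrial myocyte markers that rose, and 0 fell, with a median of 0.45, and it also passed without RV late HF replicate 1. The mean signal of the 10 markers was 8.29, 8.58 and 8.58 in RV late HF, 7.74, 7.60 and 8.02 in RV control and 10.21 to 10.35 in RA control. MYL7, the atrial regulatory light chain, averaged 12.81 ± 0.21 in RV late HF and 11.99 ± 0.31 in RV control (SD, n = 3 each), without overlap (0.82, SE 0.17, adjusted p = 0.0688), against 14.01 to 14.08 in RA control. The secreted protein DKK3 had 7.77, 8.53 and 8.27 in RV late HF and 6.39, 6.16 and 7.91 in RV control (1.37, SE 0.44, adjusted p = 0.184), and the orphan receptor NR2F2 differed by 0.48 (SE 0.13, adjusted p = 0.137). Of 13 ventricular myocyte markers 0 passed, with a median of 0.00, and 0.15 without RV late HF replicate 1.

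The remaining genes among the 15 with the largest rise were CYP1B1, HNMT and SMPDL3A. CYP1B1, a cytochrome P450 that oxidises steroids and fatty acids, had 8.08, 7.92 and 7.58 in RV late HF and 6.66, 6.32 and 5.96 in RV control, a rise of 1.55 (SE 0.18, adjusted p = 0.0145), with 8.07 to 8.58 in RA control. HNMT, which inactivates histamine by methylation, rose by 1.28 (SE 0.20, adjusted p = 0.0231) and SMPDL3A, a phosphodiesterase related to acid sphingomyelinase, by 1.35 (SE 0.19, adjusted p = 0.0188). Their RA control ranges were 7.81 to 8.29 and 7.32 to 8.11. Each of CYP1B1, HNMT and SMPDL3A had 1 other probe set, at 0.71, 0.91 and 0.50. CYP1B1 still passed without RV late HF replicate 1, and HNMT (adjusted p = 0.0609) and SMPDL3A (adjusted p = 0.0545) did not. Of the 59 risen genes, 38 stood on none of the lists.

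Stress genes of the myocyte moved little past the test. Of 29 natriuretic peptide and stress-induced genes, 1 rose and 0 fell, with a median of 0.16: clusterin (CLU), a secreted chaperone, had 9.96, 9.63 and 9.72 in RV late HF and 8.90, 8.46 and 8.32 in RV control (1.21, SE 0.19, adjusted p = 0.0226), against 8.74 to 9.60 in RA control. Without RV late HF replicate 1, 0 of the 29 passed by limma, CLU at an adjusted p of 0.0811. Natriuretic peptide B (NPPB) had 7.25, 8.95 and 7.46 in RV late HF and 6.39, 6.30 and 6.38 in RV control. All 3 late HF arrays lay above the controls. The difference of 1.53 (SE 0.89, adjusted p = 0.456 by limma) did not pass, with an SE that also took in the spread of the RV early HF arrays. UCHL1, a ubiquitin hydrolase, differed by 1.33 (SE 0.32, adjusted p = 0.0931), the LIM protein FHL1 by 0.79 (SE 0.21, adjusted p = 0.123), the stretch-responsive repressor ANKRD1 by 0.61 (SE 0.28, adjusted p = 0.339) and skeletal actin ACTA1 by 0.10 (SE 0.08, adjusted p = 0.638).

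The 9 genes that fell were more varied. SNAP91, a clathrin assembly protein of synapses, had 7.31, 6.98 and 6.82 in RV late HF and 8.19, 8.12 and 7.90 in RV control, a log2 difference of -1.03 (SE 0.15, adjusted p = 0.0188) or 0.489-fold, with RA controls at 7.80 to 8.06. GNAO1, the alpha subunit of the G protein Go, had 6.88, 6.31 and 6.49 in RV late HF and 7.91, 7.43 and 7.37 in RV control (-1.01, SE 0.17, adjusted p = 0.0285). RA controls had 9.47 to 9.73 for GNAO1, so RV late HF lay farther from the atrial level than RV control did. OLFM1, a secreted glycoprotein known from neurons, had 8.55, 8.47 and 8.39 in RV late HF and 9.35, 9.35 and 9.19 in RV control (-0.83, SE 0.10, adjusted p = 0.0145), with 7.43 to 7.95 in RA control, and its other probe set differed by -0.80.

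CAMK2B, the beta subunit of calcium/calmodulin kinase II, had 6.91, 7.13 and 7.03 in RV late HF and 7.98, 7.81 and 7.93 in RV control, a difference of -0.88 (SE 0.11, adjusted p = 0.0145), with 7.19 to 7.42 in RA control. Its other probe set differed by -0.45. The meiotic gene SYCE2 fell by 0.73 (SE 0.09, adjusted p = 0.0145), the mitochondrial enzyme GCDH, which breaks down lysine and tryptophan, by 0.60 (SE 0.09, adjusted p = 0.0234) and the mitotic ubiquitin-conjugating enzyme UBE2C by 0.59 (SE 0.09, adjusted p = 0.0263). RA controls ranged from 6.62 to 7.29 for SYCE2, from 7.78 to 8.11 for GCDH and from 7.45 to 7.54 for UBE2C. The other probe set of GCDH differed by -0.23, and the other 2 probe sets of UBE2C by -0.20 and 0.08. WDR81 fell by 0.45 (SE 0.08, adjusted p = 0.0451 by limma) and TAMM41, an enzyme of cardiolipin synthesis, by 0.43 (SE 0.08, adjusted p = 0.0482). Their RA controls were at 5.85 to 6.03 and 6.85 to 6.92. Among the alternative fits, WDR81 kept its call in 3 of 20 and TAMM41 in 6 of 21. Without RV late HF replicate 1, SNAP91, GNAO1, CAMK2B, OLFM1 and SYCE2 still passed, and the other 4 did not.

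Of the genes on the calcium cycling and ion channel lists, CAMK2B alone passed the test. The calcium pump gene ATP2B2, on none of the lists and picked after its call was seen, rose past the test. Of 29 calcium cycling genes, CAMK2B fell and 0 rose, with a median of -0.05. The ryanodine receptor RYR2, the calcium release channel, had 11.97, 11.87 and 12.32 in RV late HF and 12.46, 12.42 and 12.41 in RV control, without overlap (-0.38, SE 0.12, adjusted p = 0.193). The reuptake pump ATP2A2 had 13.22, 13.08 and 13.43 in RV late HF and 13.51, 13.46 and 13.47 in RV control (-0.24, SE 0.12, adjusted p = 0.393). Its inhibitor phospholamban (PLN) differed by 0.13 (adjusted p = 0.62) and the exchanger SLC8A1 by -0.22 (adjusted p = 0.321).

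Of 19 potassium channel genes 0 passed, with a median of -0.04. Their mean signal was 6.84, 6.78 and 6.81 in RV late HF and 6.92, 6.90 and 6.94 in RV control, without overlap, against 6.73 to 6.74 in RA control. Of the 19, 7 had a positive difference, and the lowest, -1.36, was that of KCNIP2, which weighs on this mean. KCNIP2, the subunit that shapes the transient outward current, had 10.32, 9.11 and 9.17 in RV late HF and 11.24, 10.76 and 10.67 in RV control. The groups did not overlap, and the difference of -1.36 (SE 0.38, adjusted p = 0.137) was -1.75 without RV late HF replicate 1. Its other 2 probe sets differed by -0.92 and -0.08. KCND3, a pore subunit of that current, differed by -0.20 (adjusted p = 0.573), KCNA5 by -0.28 (adjusted p = 0.138), KCNH2 by 0.07 (adjusted p = 0.806) and KCNQ1 by -0.08 (adjusted p = 0.747). Of 15 sodium, calcium, chloride and pacemaker channel genes 0 passed, with CACNA1C, the pore of the L-type calcium channel, at -0.15 (adjusted p = 0.415). Of 28 genes of gap junction and intercalated disc 0 passed: GJA1 was at -0.11 (adjusted p = 0.665), GJA5 at 0.42 (adjusted p = 0.307), caveolin 1 (CAV1) at 0.52 (adjusted p = 0.0817) and desmoplakin (DSP) at -0.43 (adjusted p = 0.111). The mean signal of the 28 was 8.22 to 8.25 in RV late HF and 8.07 to 8.16 in RV control, without overlap, against 8.27 to 8.28 in RA control. Of 23 adrenergic, muscarinic and renin-angiotensin genes 0 passed, with the receptor ADRB1 at -0.14 (adjusted p = 0.483). On that list HSD11B1 had 9.28, 6.42 and 7.30 in RV late HF and 9.46, 8.77 and 9.44 in RV control (-1.56, SE 0.55, adjusted p = 0.227). Without RV late HF replicate 1, HSD11B1 passed by limma (-2.36, adjusted p = 0.0294).

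Energy genes had medians slightly below 0, and 0 passed on any of these lists. The medians were -0.08 over 38 complex I genes, -0.08 over 32 genes of respiratory complexes II to V, -0.09 over 46 of fatty acid uptake and oxidation and -0.11 over 53 of glycolysis, glucose uptake, the citric acid cycle and creatine. The mean signal of complexes II to V was 11.96 ± 0.03 in RV late HF and 12.04 ± 0.05 in RV control (SD, n = 3 each), without overlap. The nuclear receptor PPARA, which drives fatty acid oxidation, had 7.26, 7.12 and 7.28 in RV late HF and 7.90, 7.62 and 7.65 in RV control, without overlap (-0.50, SE 0.11, adjusted p = 0.0688). Its coactivator PPARGC1A had 9.24, 9.10 and 9.33 in RV late HF and 9.68, 9.92 and 9.75 in RV control (-0.56, SE 0.19, adjusted p = 0.215). Lactate dehydrogenase A (LDHA) differed by 0.57 (SE 0.16, adjusted p = 0.139) and the creatine transporter SLC6A8 by -0.66 (SE 0.19, adjusted p = 0.146).

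Ribosomal protein genes lay slightly on the higher side: 0 of 51 passed, 47 had a positive difference and the median was 0.20. Their mean signal was 11.66, 11.70 and 11.50 in RV late HF, 11.37, 11.40 and 11.47 in RV control and 11.63 to 11.76 in RA control. On the cell cycle list of 31 genes, HMGB2, a chromatin protein of dividing cells, rose by 0.76 (SE 0.12, adjusted p = 0.024), UBE2C fell and the median was -0.03, and neither passed without RV late HF replicate 1 (adjusted p = 0.0811 for each). Of 31 angiogenesis and hypoxia genes THBS1, which inhibits vessel growth, rose (adjusted p = 0.10 without RV late HF replicate 1) and 0 fell, and VEGFA had 9.30, 9.14 and 9.23 in RV late HF and 10.03, 9.67 and 9.63 in RV control (-0.55, SE 0.13, adjusted p = 0.0971). Of 30 TGF-beta genes 0 passed, with the receptor TGFBR2 at 0.61 (SE 0.12, adjusted p = 0.0549) and the ligand TGFB1 at -0.28 (SE 0.09, adjusted p = 0.181). Of 18 endothelial and 15 smooth muscle and pericyte markers 0 passed, with medians of -0.04 and 0.25.

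**Figure D4:**
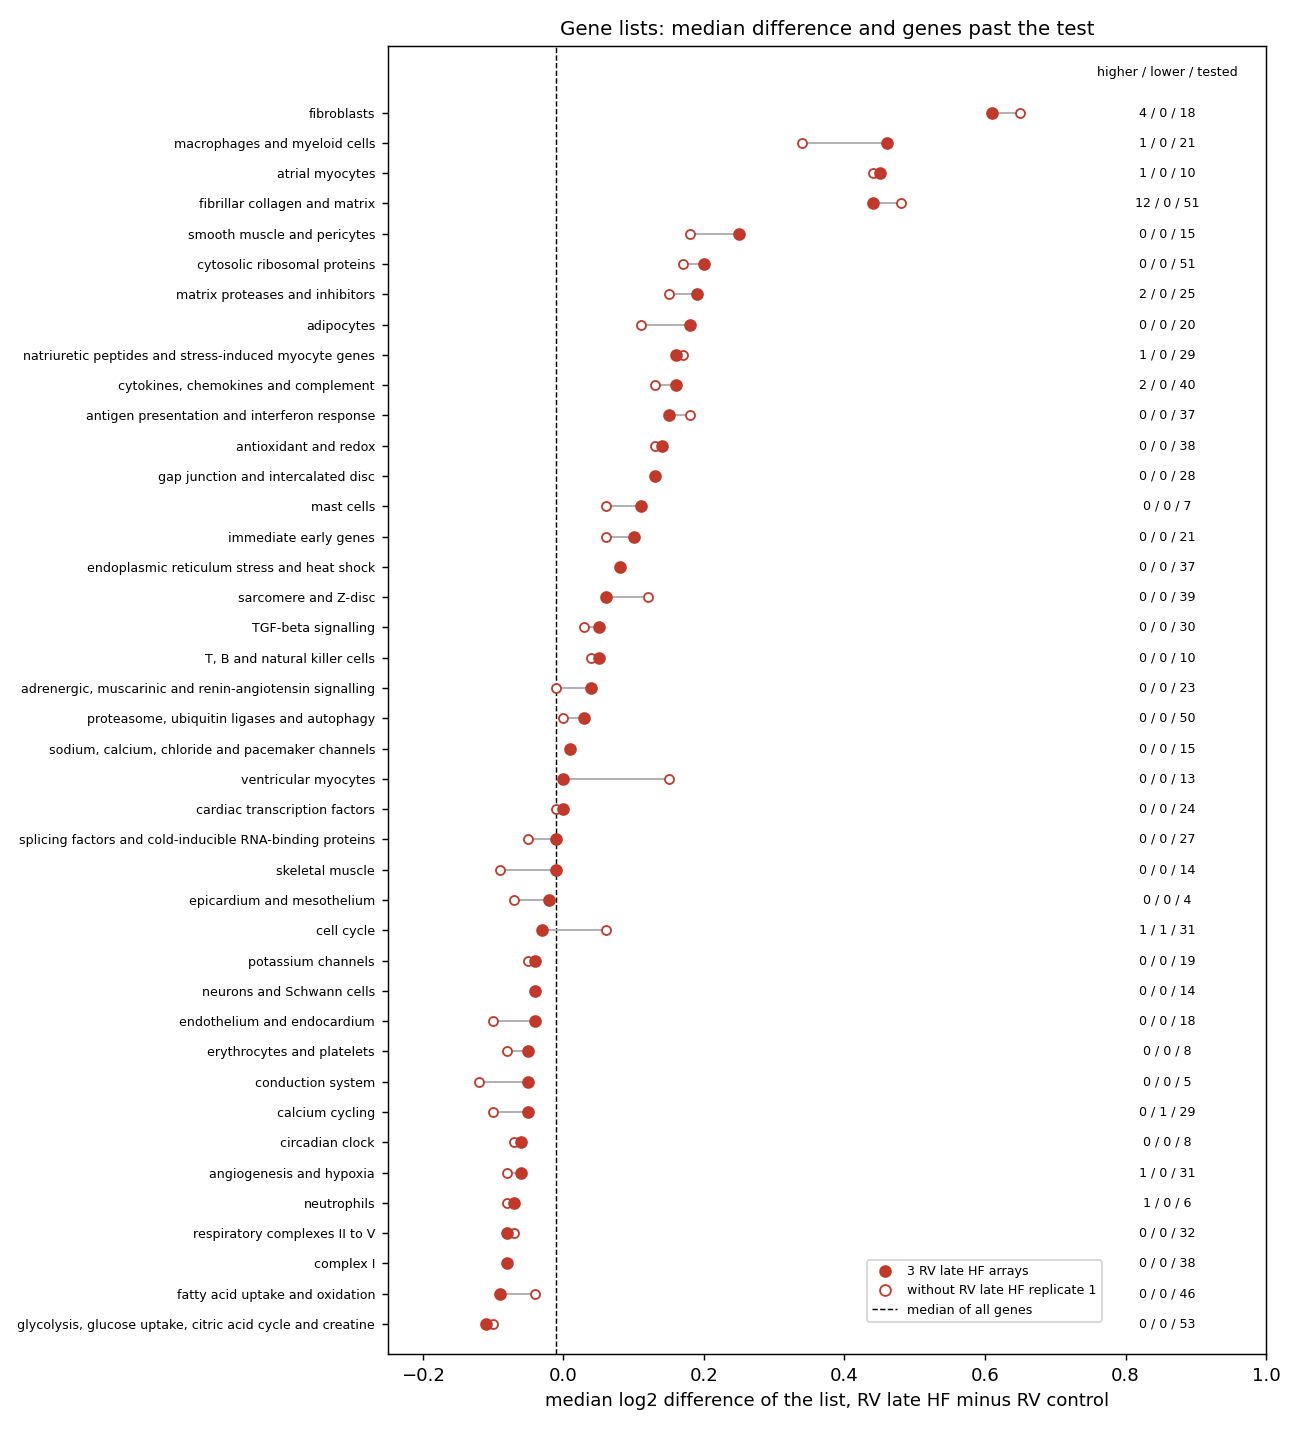
Median log2 difference of RV late HF minus RV control (x axis) for each gene list, over the 3 late HF arrays (filled) and without RV late HF replicate 1 (open); the dashed line is the median of all genes (-0.01). The numbers at the right count members higher, lower and tested. The fibrillar collagen and matrix list has the most called (12 of 51 higher, against 0.537% of all genes).

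The early stage was set beside the late one. At 2 weeks, 30 of 10988 genes (0.273%) differed from control, 21 higher (0.191%) and 9 lower (0.0819%). These comparisons share the RV controls, so values are given side by side only. THBS4 had 5.93, 5.59 and 5.46 in RV control, 6.63, 5.82 and 6.08 in RV early HF and 7.36, 7.46 and 7.77 in RV late HF, an early difference of 0.52 (SE 0.20, adjusted p = 0.302). CYP1B1 stood at its late level already at 2 weeks: it had 6.66, 6.32 and 5.96 in RV control, 7.93, 7.92 and 7.61 in RV early HF and 8.08, 7.92 and 7.58 in RV late HF, an early rise of 1.51 (SE 0.18, adjusted p = 0.0196). SNAP91 differed by -1.04 early (SE 0.15, adjusted p = 0.0244) and -1.03 late.

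Late HF was also compared with early HF directly, and 0 of 10988 genes passed (0%) by limma, with 978 at an unadjusted p under 0.05. Leaving out RV early HF replicate 2 gave 54 genes, and leaving out RV late HF replicate 1 gave 2. CRYM had the smallest p on the higher side, with 7.80, 8.09 and 8.39 in RV late HF and 5.66, 6.59 and 5.90 in RV early HF (2.04, SE 0.23, adjusted p = 0.0652). THBS4 (1.35, SE 0.20, adjusted p = 0.111) and CCDC80 (0.90, SE 0.14, adjusted p = 0.111) followed. On the lower side were LMO7, a protein of cell junctions, with 9.40, 9.44 and 9.24 in RV late HF and 10.56, 10.09 and 10.65 in RV early HF (-1.07, SE 0.15, adjusted p = 0.111), the prostaglandin E2 receptor PTGER4 (-0.86, SE 0.14, adjusted p = 0.114) and PAIP2B (-0.70, SE 0.11, adjusted p = 0.114). LMO7 was at 9.49, 9.55 and 9.26 in RV control, so late HF and control overlapped there.

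**Figure D5:**
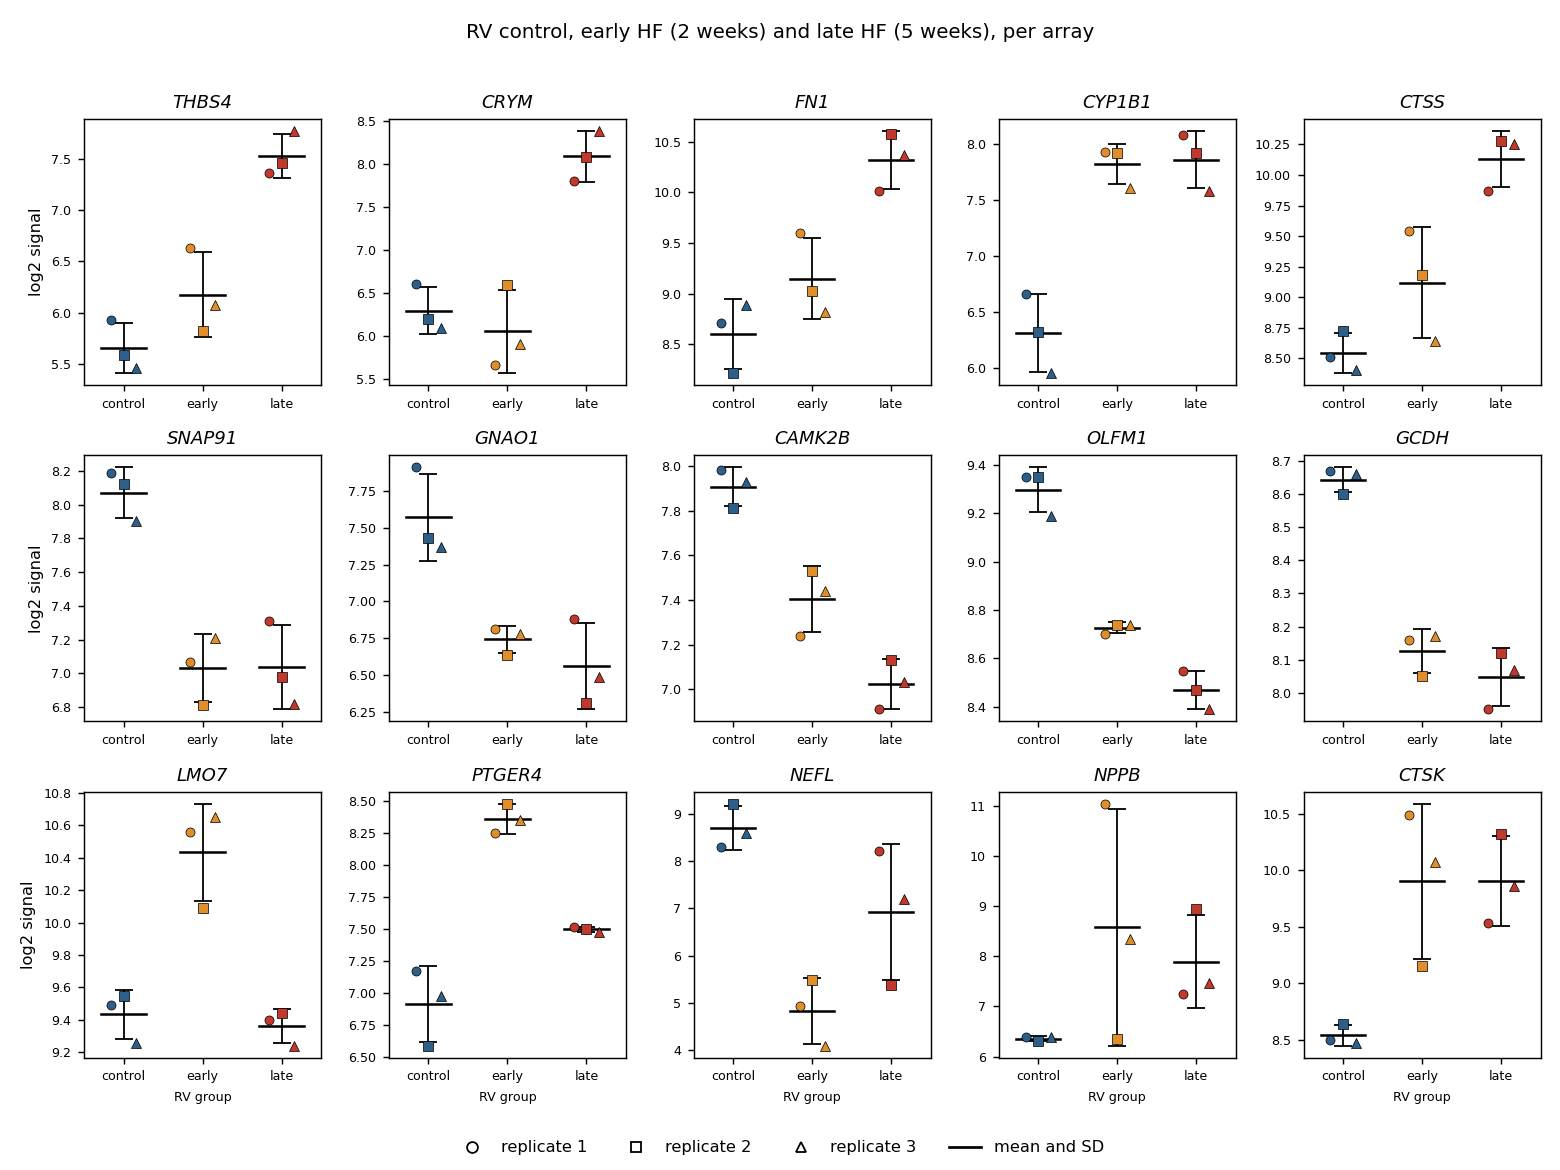
Log2 signal (y axis, own scale in each panel) of 15 genes in RV control, early HF (2 weeks) and late HF (5 weeks), per array with the mean and SD. CYP1B1 and SNAP91 reach their late level in early HF, THBS4 and CRYM stand apart in late HF, and LMO7 is higher in early HF than in either of the others.

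The neurofilament gene NEFL had 8.30, 9.21 and 8.60 in RV control, 4.93, 5.49 and 4.10 in RV early HF and 8.21, 5.38 and 7.20 in RV late HF. It fell in early HF, with a log2 difference of -3.86 (adjusted p = 0.0299), uncertain in size since early HF averaged 4.84, under the signal limit. Its late difference of -1.77 (SE 0.58, adjusted p = 0.197) did not pass. The late HF arrays of NEFL spread over most of the range between the early HF and control arrays.

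Whether late HF acted differently in the 2 chambers was tested as the RV effect minus the RA effect, without the array labelled RA late HF replicate 3, which leaves 2 RA late HF arrays. Of 10988 genes 0 passed (0%) by limma, with 755 at an unadjusted p under 0.05. Leaving out a further RA late HF array leaves 1 in that group, so no count is given for that. The genes of smallest p were CRYM, with an RV effect of 1.80, an RA effect of -0.74 and a difference of 2.54 (SE 0.52, adjusted p = 0.327), MYL7 (1.00, SE 0.22, adjusted p = 0.373) and RAB9B (0.98, SE 0.22, adjusted p = 0.44) on the higher side. On the lower side were the class II gene DLA-DMA (-1.69, SE 0.32, adjusted p = 0.327), PUS3 (-0.72, SE 0.15, adjusted p = 0.327) and TAMM41 (-0.63, SE 0.13, adjusted p = 0.327). THBS4 differed by 1.87 in RV and by 4.08 (SE 0.57, adjusted p = 0.00813) in RA, and the difference of these effects, -2.21 (SE 0.77, adjusted p = 0.588), did not pass. CTSS differed by 1.59 in RV and 2.26 in RA, and SNAP91 by -1.03 in RV and -0.93 in RA, with chamber differences of -0.67 (SE 0.40, adjusted p = 0.69) and -0.10 (SE 0.26, adjusted p = 0.937).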

How the data were processed

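The deposited values are log2 signals per probe set of the Affymetrix Canine_2 array, and MAS5 is named per the submitters' processing notes, without a version. Biotinylated cRNA was made from total RNA, per the labels' protocols. The array medians lay between 5.65 and 5.75, so the values were used as deposited, and any 2 arrays differed in at least 97.5% of their values.

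Of 43035 probe sets, 111 controls were left out and the 40% with the lowest mean signal were removed (limit 5.31), which left 25754. Of the probe sets, 29254 carried 1 gene symbol, 439 several and 13231 none, and no gene was named from a probe set with several or none. limma 3.58.1 (R 4.3.3; lmFit and eBayes with an intensity trend) was fitted to the 9 RV arrays, with p-values adjusted by Benjamini-Hochberg over all 25754 probe sets. The chamber difference used 17 arrays. The procedure was tested on simulated data.

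The genes named were up to 15 per direction with the largest change among those past the test and without overlap between the groups, the 3 of smallest p in each direction for late against early HF and for the chamber difference, up to 4 of smallest p per list, and a set list of key cardiac genes. The members and lists were chosen with earlier results of these data known. On an array, precision is limited by the number of arrays, and no sequence is shown. Alternatives covered the arrays fitted, normalization, signal filter, probe set choice, variance model, array weights, a GAPDH 3' minus 5' covariate, the replicate block and each array left out.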

Additional observations from a re-analysis of the deposited data

Results flagged for a closer look

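Each of 2 probe sets without a gene symbol passed the test of the RV effect minus the RA effect of late HF (limma, 2 RA late HF arrays). The first differed by 1.13 (SE 0.16, adjusted p = 0.0239), with 5.64, 5.44 and 5.31 in RV late HF and 5.32, 5.37 and 5.23 in RV control, and 5.34 to 5.47 in RA late HF and 6.18 to 6.59 in RA control. The second differed by -2.13 (SE 0.29, adjusted p = 0.0239), with 8.53, 7.70 and 8.02 in RV late HF and 9.70, 9.72 and 9.54 in RV control, and 7.48 to 7.59 in RA late HF and 6.77 to 7.16 in RA control.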

How the results depend on the processing

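The count of 68 genes in RV late HF against RV control was 0 over all 18 arrays, 17 over 17 arrays, 115 over the 6 arrays compared, 159 with array weights and 23 with the GAPDH covariate. It ranged from 0 to 95 with 1 array left out: 24, 18 and 3 without RV late HF replicate 1, 2 and 3, and 1 and 0 without RV control replicate 2 and 3. The 30 genes of RV early HF against RV control became 11 over 18 arrays, 58 over 17, 50 with quantile normalization (25 higher and 25 lower, against 21 and 9), 65 with array weights and 18 with the GAPDH covariate, and 1 to 226 with 1 array left out, the highest without RV early HF replicate 2. For RV late HF against RV early HF the count of 0 became 1 with no signal filter and 1 with array weights, and 0 to 54 with 1 array left out. The chamber difference gave 0 to 79 with 1 array left out. The cause of these shifts was not tested.

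The replicate numbers showed no pairing among the RV groups: same-numbered RV arrays correlated between -0.33 and 0.09 in their deviations from the group means. Whether RA and RV arrays of the same number share a dog was not tested. With the replicate block the counts were 66 in RV late HF against RV control (53 of the 68 shared), 35 in RV early HF against RV control, and 0 for late against early HF and for the chamber difference.

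Of 522 alternative values of the 24 genes named for late HF against control, 351 kept their call, 171 lost it and 0 changed sign. Of these 24 genes, 16 had other probe sets, 21 in all. Of the 21, 17 differed in the same direction and 4 passed the test. For genes under a signal of 5.31, the filter limit, the size of the fold is uncertain.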
